A study of Mus musculus with 7 samples.

Results

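Monocyte-derived dendritic cells of a mouse glioma were taken here as the cells that the deposited cell table names mo-DCs: 1569 of 28644 cells, under 1 of 23 annotation names. They came from 7 mice bearing CT-2A glioma, a transplantable mouse glioma line, placed in the right side of the brain at an age of 8 to 12 weeks. Cells of the tumour-bearing hemispheres were kept frozen, and after thawing the live ones that carried CD45 and/or CD11b were taken by sorting. A 5-prime droplet library was made from each mouse, so that 1 library is 1 mouse. The 4 KO mice (genotype label Siglece KO) carried Sall1CreERT2 and Siglece fl/fl, and the 3 WT mice carried Siglece fl/fl without Cre. The parent alleles were B6;129-Sall1<tm5(cre/ERT2)Ryn> and B6.129P2-Siglece<tm1Bcgen>. Both groups received 2.5 mg of tamoxifen per injection, daily from day 7 to day 21 after tumour injection and then every other day, so tamoxifen and the floxed allele were shared by KO and WT. The driver is a tamoxifen-dependent Cre under Sall1, a microglial gene, and the series describes the induced KO as confined to microglia, so mo-DCs were not its intended target.

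Monocytes that enter inflamed or tumour-bearing tissue can take on features of dendritic cells, with MHC class II molecules that present peptides to CD4+ T cells. Conventional dendritic cells come instead from a dedicated precursor and are grouped into cDC1, which carry Xcr1 and Clec9a and need Irf8 and Batf3, and cDC2, which carry Sirpa and lectins such as Cd209a and Clec10a and use Irf4. The transcription factor Zbtb46 and the receptor Flt3 are commonly used to tell conventional dendritic cells from monocytes and macrophages. Siglece encodes an inhibitory receptor of myeloid cells that binds sialic acid on neighbouring cells.

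The mo-DCs numbered 120, 361, 138 and 202 in KO replicates 1 to 4 and 291, 287 and 170 in WT replicates 1 to 3. Their summed UMIs (molecules counted once by a molecular identifier) lay between 1372664 and 2846324 per mouse, and a cell held a median of 9017. The cells compared with them were 1521 monocytes (34 of them in KO replicate 1), 1864 cDC1 and 954 cDC2, with medians of 5730.0, 13792.0 and 6439.0 UMIs. Levels below are CPM, the UMIs of a gene in every 1000000 UMIs summed over that cell type in that mouse, as mean ± SD over mice. Some cell barcodes occurred in more than 1 library: 38 mo-DCs (2.42%) held such a barcode, against 3.23% of all cells.

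The data went in part against the annotation. Of the 12 genes fixed as mo-DC markers, 4 had their highest level of the 4 cell types in mo-DCs (Cd209a, Itgax, Clec10a and Mgl2), 7 in monocytes and 1 in cDC2. In every mouse, 7 of the 12 were at least 2-fold higher in mo-DCs than in cDC1 and 0 lower. Against cDC2, 10 were higher and 1 lower, and against monocytes 4 were higher and 4 lower. Of all genes, 5.68, 11.1 and 3.95% were higher by that fold than in cDC1, cDC2 and monocytes. Of 14 classical monocyte markers, 13 were highest in monocytes, and of 14 macrophage markers all 14 were. Of 9 genes shared by dendritic cells, 8 were at least 2-fold higher in mo-DCs than in monocytes in every mouse, with a median log2 difference of 4.36 over the 9; of all genes 3.95% were past that fold. The cDC2 list had 5 of its 10 members highest in mo-DCs, 4 in monocytes and 1 in the cells annotated cDC2. It shares Cd209a, Clec10a, Mgl2, Sirpa and Itgam with the mo-DC list. Its genes took a median of 0.0999% of a mo-DC's UMIs and 0.0911% of a monocyte's. The medians of the mice overlapped between mo-DCs (0.0860 to 0.125%) and monocytes (0.0865 to 0.118%). All 16 markers of mature dendritic cells were instead highest in the cells annotated cDC2. The cells are therefore called by their annotation below. The cells had been grouped by the authors from the same RNA, so these contrasts are a description and no test is given.

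The 4 genes proposed as markers of these cells did not behave alike. Siglece (chr7:43651070-43660161, GRCm38) was at 75.0, 80.5, 92.5 and 57.6 CPM in KO replicates 1 to 4 and at 98.3, 86.8 and 80.9 CPM in the WT mice. Every mouse had more Siglece in its mo-DCs than in its monocytes (20.5 ± 7.01 CPM, n = 7), cDC1 (1.97 ± 1.46) or cDC2 (2.16 ± 2.02). H2-Ab1, the beta chain of the class II molecule I-A, was at 8559.6 ± 467 CPM, against 3290.7 ± 989.9 in monocytes, 7616.1 ± 970.1 in cDC1 and 798 ± 195 in cDC2. Plac8 and Ms4a4c were higher in monocytes (1170.6 ± 433 and 633 ± 236 CPM) than in mo-DCs (689 ± 313 and 279 ± 159 CPM). Plac8 was also at 827 ± 281 CPM in cDC1 and at 2296.6 ± 78.7 CPM in plasmacytoid dendritic cells, so it did not mark mo-DCs. Ms4a4c, a tetraspan membrane protein, was at 37.4 ± 25.8 CPM in cDC1 and 23.6 ± 16.3 CPM in cDC2, so that it set mo-DCs apart from both conventional types but not from monocytes.

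**Figure D1:**
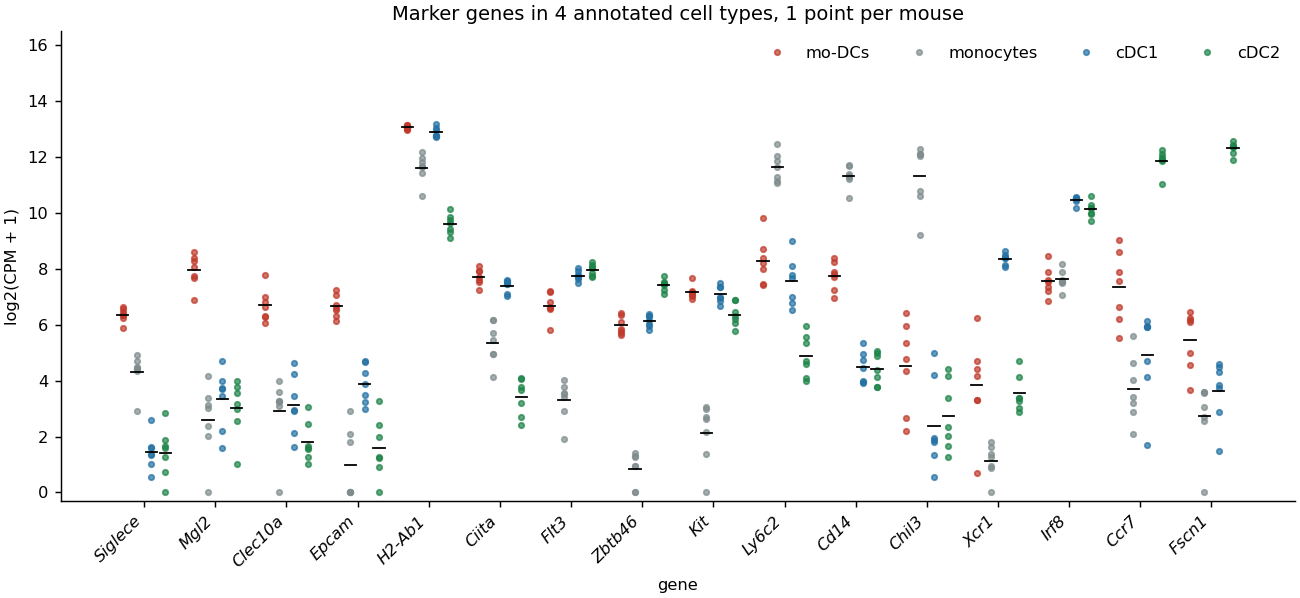
Levels of 16 marker genes as log2(CPM + 1), with 1 point per mouse (7 mice) in mo-DCs (red), monocytes (grey), cDC1 (blue) and cDC2 (green), and a bar at the mean. Mgl2 lay at 116 CPM or more in the mo-DCs of all 7 mice and at 24.9 CPM or less in the other 3 cell types, while Chil3 and Cd14 were highest in monocytes and Ccr7 and Fscn1 in cDC2.

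Across all 23 annotated types, Siglece had its highest mean in mo-DCs, at 81.7 ± 13.2 CPM (57.6 to 98.3, n = 7). Next came macrophages P5 at 61.7 ± 11.0 CPM (39.4 to 71.5, n = 7) and proliferating macrophages at 59.5 ± 26.6 CPM (28.6 to 100.3, n = 6). The ranges of these 3 neighbours overlap. Within mice, mo-DCs were higher than macrophages P5 in 7 of 7 (by 19.9 ± 13.4 CPM) and higher than proliferating macrophages in 4 of 6 (by 20.4 ± 26.9 CPM), a difference smaller than its spread over mice. Microglia were at 48.9, 51.4 and 14.6 CPM in the 3 WT mice, and no KO library held 20 of these cells, so their rank is that of WT mice alone. T cell, B cell, NK cell and plasmacytoid dendritic cell types had means of 5.97 CPM or less. After each cell was thinned to 3323 UMIs, 22.8 ± 2.94% of mo-DCs had a Siglece UMI (17.4 to 25.7%, n = 7). At the same depth a Siglece UMI was present in 1.05 ± 0.844% of T cells, 0.508 ± 0.543% of cDC1, 0.722 ± 0.675% of cDC2 and 0 of 545 B cells. The unthinned means were 46.5% in KO and 45.3% in WT mo-DCs.

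**Figure D2:**
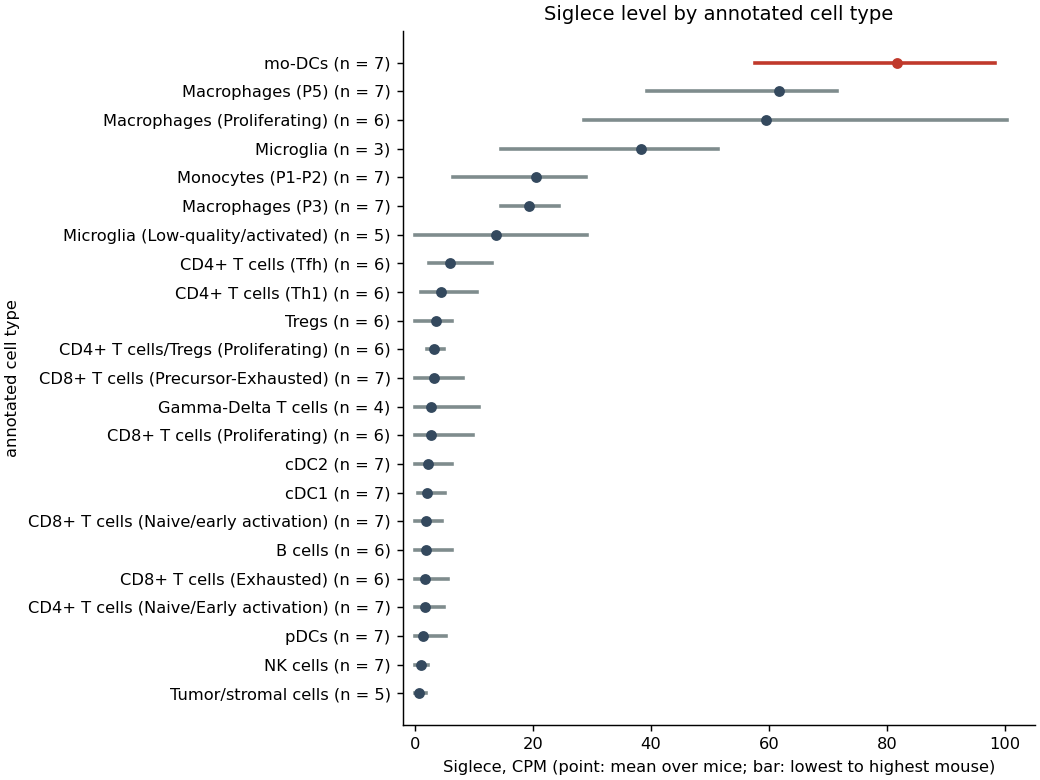
Siglece in CPM in each of the 23 annotated cell types, with the mean over mice (point) and the lowest to highest mouse (bar); n is the number of mice with at least 20 cells of that type. The mo-DC bar, from 57.6 to 98.3 CPM, overlaps those of macrophages P5 and proliferating macrophages and lies above those of monocytes, cDC1 and cDC2.

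Of the 6 other sialic acid receptors listed, 4 were highest in mo-DCs among the 4 cell types, and Cd33 was not among these. The share of all genes that were highest in mo-DCs was not computed, so this count has no background beside it. Of the 6, only Siglecg (above monocytes) and Cd33 (above cDC1 and cDC2) were at least 2-fold higher in every mouse. Of all genes, 3.95, 5.68 and 11.1% were past that fold above monocytes, cDC1 and cDC2. Siglecg, an inhibitory Siglec best known from B cells, was at 59.2 ± 13.6 CPM against 3.42 ± 2.51 in monocytes. Cd33 did not separate mo-DCs (90.8 ± 28.3 CPM) from monocytes (102 ± 39.8), but was at 3.67 ± 1.73 and 2.31 ± 1.95 CPM in cDC1 and cDC2. Siglec1, a macrophage receptor, was at 7.52 ± 3.59 CPM in mo-DCs and 55.8 ± 17.4 CPM in monocytes.

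Against monocytes, 132 of 3343 genes (3.95%) were past the fold on the higher side, meaning at least 2-fold in every mouse on the log2(CPM + 1) scale with a mean of 50 CPM or more in the higher type. On the lower side there were 198 (5.92%). The genes with the largest differences on the higher side were Ppp1r14a, Ccl17, Klrd1, Epcam, Spint2, Ctnnd2, Timd4, Cd7, Plet1 and Mgl2. Ccl17, a ligand of Ccr4 made by dendritic cells, was at 167 ± 63.9 CPM against 3.01 ± 4.00, and Epcam, an adhesion molecule, at 103 ± 29.3 against 1.76 ± 2.52. Klrd1, the CD94 chain of an NK cell receptor, was at 287 ± 96.9 CPM against 6.09 ± 5.68. Zbtb46 was at 63.3 ± 14.3 CPM against 0.902 ± 0.674, and at 70.3 ± 10.2 CPM in cDC1 and 172 ± 25.8 CPM in cDC2. Kit, the receptor for stem cell factor, was at 144 ± 28.2 CPM against 4.27 ± 2.74 in monocytes. On the lower side stood Chil3, Ly6a2, Hp, Saa3, F10, Cxcl1, Vcan, Thbs1, Slpi and Acod1. Chil3, a chitinase-like protein of monocytes, was at 34.4 ± 29.9 CPM against 3134.4 ± 1762.6. Thbs1, the matrix protein thrombospondin, was at 84.8 ± 88.1 CPM against 1742.4 ± 669.

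Cd14 and Csf1r had mean levels in mo-DCs between those of monocytes and of both conventional types. The 14 classical monocyte markers separated mo-DCs from monocytes more clearly than from cDC1. They took a median of 0.134% of a mo-DC's UMIs, against 1.40% in monocytes, 0.107% in cDC1 and 0.0147% in cDC2. The medians of the mice overlapped between mo-DCs (0.0960 to 0.288%) and cDC1 (0.0699 to 0.189%). Of the 14, 9 were past the fold below monocytes, 3 above cDC1 and 6 above cDC2. Their median log2 difference from cDC1 was 1.89. Ly6c2 was at 362 ± 251 CPM in mo-DCs, at 3387.8 ± 1270.4 in monocytes, at 220.1 ± 146 in cDC1 and at 32.3 ± 17.2 in cDC2. The share of cells with a Ly6c2 UMI at 3323 UMIs had another order, with 25.8 ± 12.1% of mo-DCs, 30.8 ± 9.70% of cDC1 and 37.4 ± 7.65% of T cells, and 60.5% of the Ly6c2 UMIs of mo-DCs lay in 5% of the cells. No order between mo-DCs and cDC1 is therefore given for it. Cd14, the co-receptor for lipopolysaccharide, was at 225 ± 75.0 CPM against 2611.4 ± 635 in monocytes, yet at only 22.9 ± 9.74 and 21.9 ± 8.51 CPM in cDC1 and cDC2. A Cd14 UMI was found in 670 of the 1569 mo-DCs, and 56.3% of these UMIs lay in 5% of the cells. The mean for Cd14 in mo-DCs need not be the level of most of them. Csf1r, the receptor for macrophage growth factor, had the same order, with 175 ± 24.2 CPM in mo-DCs, 693 ± 119 in monocytes and 18.4 ± 4.47 and 14.6 ± 11.4 in cDC1 and cDC2. Cebpb, a transcription factor of myeloid cells, was at 560.2 ± 148 CPM against 3539.7 ± 295 in monocytes. Ifitm6 was the 1 classical monocyte marker of 14 that was highest in mo-DCs, at 143 ± 47.1 CPM against 91.6 ± 63.4 in monocytes, 41.2 ± 30.7 in cDC1 and 0.288 ± 0.491 in cDC2.

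Against cDC1, 187 of 3291 genes (5.68%) were past the fold on the higher side and 74 (2.25%) on the lower. The higher side was led by S100a4, Ccr1, Siglece, Cdh1, Htra3, Clec4n, Mgl2, Mmp12, Pltp and Tmem176b. S100a4, a calcium-binding protein of motile cells, was at 1282.0 ± 302 CPM against 36.6 ± 25.3, and Ccr1, a receptor for inflammatory chemokines, at 189.6 ± 31.6 against 6.14 ± 6.17. Sirpa, the receptor for CD47 that marks cDC2 and monocytes, was at 179 ± 25.7 CPM against 7.99 ± 2.96. The lower side was led by Gpr141b, Gcsam, Xcr1, Clec9a, Cd36, Cxcr3, Plpp1, Agpat3, Rtl8c and Rab7b. Of the 11 cDC1 markers, 10 were past the fold on the lower side. Xcr1, the receptor for Xcl1, was at 22.2 ± 24.6 CPM in mo-DCs against 331 ± 45.1 in cDC1, and Irf8 at 197 ± 77.3 against 1422.2 ± 124. Flt3 was at 106 ± 31.6 CPM in mo-DCs and 217 ± 27.0 in cDC1, and was not past the fold.

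Against the cells annotated cDC2, 399 of 3592 genes (11.1%) were past the fold on the higher side and 396 (11.0%) on the lower. The higher side was led by Ifitm6, Ctnnd2, Cfp, Cyp4f16, Trem1, Ccr1, Ckb, Cdh1, Epcam and Ffar2. The lower side was led by Gm13546, Slc27a3, Fscn1, Nudt17, Scin, Npr1, Cacnb3, Bcl2l14, Adcy6 and Gm47662. Cfp, the complement regulator properdin, was at 609 ± 99.6 CPM in mo-DCs against 8.46 ± 3.69. Fscn1, the actin-bundling protein of migratory dendritic cells, was at 51.9 ± 29.6 CPM in mo-DCs and 5134.0 ± 727 in the cells annotated cDC2, and Ccr7, the receptor that guides dendritic cells to lymph nodes, at 223 ± 179 and 3858.8 ± 870.1. Of the 16 mature dendritic cell markers, 14 were past the fold on the lower side, with a median log2 difference of -3.25. Of 11 class II genes, 10 were past it on the higher side, with a median of 3.43.

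Only 14 of 4126 genes (0.339%) were past the fold above all 3 other types, and 0 below all 3. They were Mgl2, Ffar2, Ifitm1, Cd7, Cdh1, Clec10a, Dcstamp, Ctnnd2, Epcam, Klrd1, B4galt6, Cfp, Siglece and Trp53i11. Mgl2 (chr11:70130329-70137550, GRCm38), a lectin for galactose-type sugars, was at 269, 383, 213 and 310.2 CPM in the KO mice and 116, 334 and 205 CPM in the WT mice. Its mean in the other 3 types was 6.93 to 11.4 CPM. Clec10a, the closely related lectin, was at 111 ± 51.9 CPM against 8.43 ± 4.44, 10.1 ± 8.05 and 2.91 ± 2.24 in monocytes, cDC1 and cDC2. Plasmacytoid dendritic cells held more Clec10a (250.5 ± 40.7 CPM) but less Mgl2 (28.6 ± 6.28 CPM) than mo-DCs. Mgl2 and Clec10a are near-identical neighbours, and how reads shared between them were counted is not given in the sources used here. Ifitm1, an interferon-induced membrane protein, was the most abundant of the 14 at 3434.4 ± 497 CPM against 146 to 214 CPM in the others. Cdh1 and Epcam, adhesion proteins of epithelia and of some dendritic cells, were at 107 ± 30.4 and 103 ± 29.3 CPM.

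Class II genes were near their cDC1 levels in mo-DCs, with 4 of 11 past the fold above monocytes (3.95% of all genes) and 0 above or below cDC1 (5.68 and 2.25% of all genes, so that 0 of 11 is near the background). Cd74, the invariant chain that guards the class II groove, was at 28085.7 ± 1156.0 CPM in mo-DCs, 25271.9 ± 2245.6 in cDC1, 12871.1 ± 3663.7 in monocytes and 6515.9 ± 1763.7 in cDC2. Ciita, the master activator of class II genes, was at 214 ± 42.3, 169 ± 25.6, 44.5 ± 20.8 and 10.5 ± 4.65 CPM in the same order. H2-Oa and H2-DMb2, which tune peptide loading, were at 399 ± 101 and 626 ± 83.3 CPM in mo-DCs and at 12.6 ± 7.40 and 27.1 ± 10.2 CPM in monocytes. Of the 11 class II genes, 8 were highest in mo-DCs.

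Single cells differed in how evenly they carried these genes. The 11 class II genes took a median of 6.18% of a mo-DC's UMIs, with 1.87% at the 5th and 9.10% at the 95th percentile of cells, and the medians of the 7 mice lay between 5.90 and 6.40%. Over mice, the medians were 0.452 to 3.62% in monocytes, 4.66 to 5.69% in cDC1 and 0.399 to 0.914% in cDC2, so those of monocytes and cDC2 overlapped. The 79 cells with the most UMIs of a gene, 5% of all, held 27.1% of the Siglece UMIs, 27.0% of Flt3, 24.0% of Kit and 38.4% of Mgl2. For Cd209a, a DC-SIGN relative, they held 87.7%, for Ccr7 74.5%, for Chil3 89.7% and for Xcr1 97.1%. A gene with few UMIs can have a high value by counting alone, and Xcr1 (384 UMIs), Chil3 (573) and Cd209a (778) had fewer than Siglece (1288). Zbtb46, with 1023 UMIs in 632 cells, was at 27.2%. The UMIs of Cd209a lay in 155 cells, those of Chil3 in 138 and those of Xcr1 in 90. The part of counting in these values was not tested. Ccr7 had 3859 UMIs, more than Siglece, Flt3 (1714) or Kit (2253), and was carried by fewer cells. The same measure was 94.2% for Cd3e, a T cell receptor component. A T cell receptor complex UMI (Cd3d, Cd3e, Cd3g, Trac or Trbc2) was present in 270 mo-DCs (17.2%), against 12.7% of monocytes, 18.9% of cDC1 and 15.4% of cDC2. Of the 63331 immunoglobulin UMIs in mo-DCs, 57045 were in 6 cells of KO replicate 4 and WT replicate 2. How doublets were handled is not given in the sources used here.

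**Figure D3:**
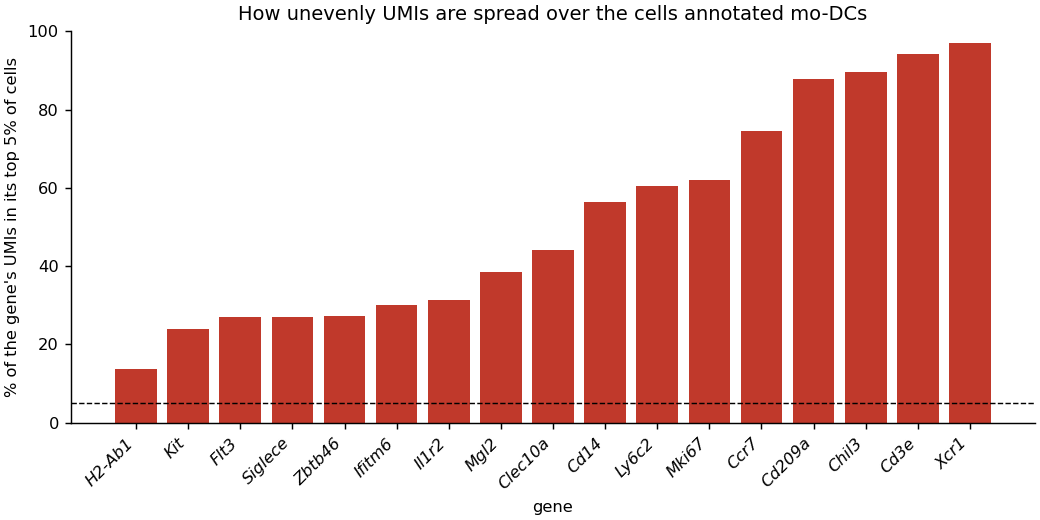
Percent of a gene's UMIs that lay in the 5% of mo-DCs (79 of 1569 cells) with the most UMIs of that gene; the dashed line marks 5%, the share of cells, and a gene with few UMIs lies above it by counting alone. H2-Ab1 (13.8%), Kit (24.0%), Flt3 (27.0%) and Siglece (27.1%) have low values, and Ccr7 (74.5%), Cd209a (87.7%) and Xcr1 (97.1%) have high ones.

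The share of mo-DCs was then compared between the genotypes with exact permutation tests over mice, two-sided, for which 4 against 3 mice cannot give a p under 0.0286. Among myeloid cells, mo-DCs made up 18.1, 16.2, 17.2 and 11.6% in the KO mice and 11.9, 11.5 and 6.89% in the WT mice. The groups overlapped, and the difference of 5.68 percentage points had an exact permutation p of 0.0857 (adjusted over 4 denominators 0.286). Among monocytes and mo-DCs together the shares were 77.9, 72.9, 58.7 and 49.5% in KO and 37.7, 60.3 and 30.9% in WT (exact permutation p = 0.143, adjusted 0.286). Of all cells they were 5.42 ± 2.69% (n = 4) and 6.89 ± 2.83% (n = 3), with an exact permutation p of 0.486, and the difference of -1.47 points turned to 0.0390 without WT replicate 1. Among dendritic cells they were 34.1 ± 7.20 and 31.8 ± 5.47%, with an exact permutation p of 0.657. The latter difference, 2.33 points, was 0.167 without WT replicate 3 and 5.47 without KO replicate 4. None of the 4 passed, and edgeR on the cell counts gave a log2 difference of -0.10 (adjusted p = 0.854). The same libraries held 10617 T cells in KO and 3075 in WT, and their part in the share of all cells was not tested.

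Siglece in mo-DCs did not pass the test between the genotypes. Its log2 change, KO over WT, was -0.26 (SE 0.16, edgeR quasi-likelihood adjusted p = 0.746), from 76.4 ± 14.5 CPM (n = 4) and 88.7 ± 8.88 CPM (n = 3), and the groups overlapped. The share of cells with a Siglece UMI at 3323 UMIs was 22.5 ± 3.52% in KO and 23.2 ± 2.62% in WT (exact permutation p = 0.800). At 9016 UMIs, which 776 cells reached, it was 43.8 ± 5.99 and 53.1 ± 1.01% (exact permutation p = 0.0571), and the KO mice (37.8, 42.4, 52.1 and 42.9%) all lay below the WT mice (52.6, 52.4 and 54.2%). Since UMIs were totalled over the gene, a deleted allele cannot be told from an intact one.

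No gene passed the test between KO and WT mo-DCs: 0 of 10501 (0%) had an edgeR quasi-likelihood adjusted p under 0.05, and 798 had an unadjusted p under 0.05 (441 lower in KO, 4.20%, and 357 higher, 3.40%). DESeq2, the planned second tool, called 26 genes lower (0.300%) and 8 higher (0.0924%) in KO of 8662 with an adjusted p, 13 of them from the type I interferon list. edgeR without the filter on low counts called 182 of 21012, 25 of them from that list. In all, 558 genes (5.31%) had every KO mouse above every WT mouse and 295 (2.81%) the reverse.

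The genes with the lowest unadjusted p among those were Isg20, Fcgr1, Psd4, Nmi, Oas2, Gmppb, Dynll1, Pfkl, Trim30b and Zbp1 below and Ctsw, Vwa8, Inpp4b, Serpinb6a, Il18r1, Cox7a2l, Cpd, Gstp3, Cirbp and Ckap2 above. None passed, with edgeR adjusted p of 0.423 to 0.490. Isg20, an exonuclease that degrades viral RNA, was at 52.2, 50.9, 72.6 and 68.6 CPM in the KO mice and 197, 138 and 99.1 CPM in the WT mice (log2 change -1.30, SE 0.22, edgeR adjusted p = 0.423). Fcgr1, the high-affinity receptor for IgG, was at 75.0, 74.1, 93.7 and 83.7 CPM and 162, 111 and 147 CPM (log2 change -0.82, SE 0.15, edgeR adjusted p = 0.423). Ctsw, a cathepsin of cytotoxic lymphocytes, was at 29.3, 17.2, 15.7 and 22.0 CPM and 6.70, 4.59 and 5.10 CPM (log2 change 1.89, SE 0.30, edgeR adjusted p = 0.423). In each case the mice of the groups did not overlap.

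The type I interferon list, 43 genes known to be induced by type I interferon, lay on the lower side in KO as a whole. Of 43 tested members, 43 had a log2 change below 0, against 49.1% of all genes, with a median of -1.01 against 0.01 over all genes. Of the 43, 38 had an unadjusted p under 0.05 (against 4.20% of all genes on that side), 17 had every KO mouse below every WT mouse (against 2.81% of all genes), and 0 passed the edgeR test. Isg15, a ubiquitin-like protein that is attached to other proteins, was at 223, 149, 278 and 306 CPM in the KO mice and 1080.4, 502 and 468 CPM in the WT mice. The groups did not overlap, and WT replicate 1 stood highest (log2 change -1.56, SE 0.35, edgeR adjusted p = 0.490, DESeq2 0.000985). Zbp1, a sensor of nucleic acid in Z form, was at 78.0, 56.6, 92.5 and 80.7 CPM and 196, 108 and 129.7 CPM. Rsad2, the antiviral enzyme viperin, was at 16.4, 11.9, 31.4 and 49.5 CPM in KO and 177, 68.8 and 37.2 CPM in WT, where KO replicate 4 lay above WT replicate 3. Irf7, which amplifies interferon production, was at 106, 119, 210.4 and 238 CPM and 805, 305 and 234 CPM, also with an overlap. Irf9 and Parp9 had the smallest differences of the list, with log2 changes of -0.15 and -0.24.

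**Figure D4:**
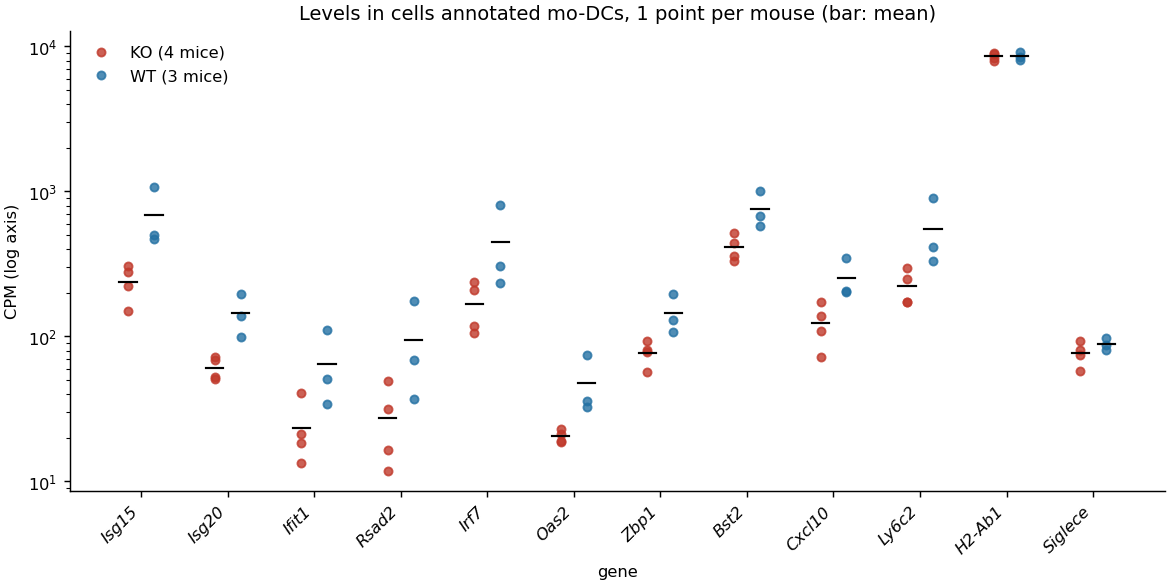
Levels of 12 genes in mo-DCs in CPM on a log axis, with 1 point per mouse for KO (red, 4 mice) and WT (blue, 3 mice) and a bar at the mean. The interferon-induced genes Isg15, Isg20, Oas2, Zbp1 and Bst2 have all KO points below all WT points, while H2-Ab1 and Siglece overlap; no gene passed the edgeR test.

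The promoters of 3 members are shown because the list's genes are known targets of factors that bind the interferon-stimulated response element, whose core is GAAA, 2 bases of any kind, and GAAA again. They were the 3 with the lowest unadjusted p among members whose mice did not overlap and whose promoter holds the motif, chosen after these values were seen. Each run is the 250 bases before the RefSeq start (GRCm38.p6), 5′ to 3′ on the gene's strand, with every match to that core, or on the other strand to TTTC, 2 bases and TTTC, in capitals, overlapping matches joined. Bst2 lies at chr8:71537473-71537722, Phf11b at chr14:59341331-59341580 and Isg15 at chr4:156200819-156201068, all on the minus strand.
Bst2: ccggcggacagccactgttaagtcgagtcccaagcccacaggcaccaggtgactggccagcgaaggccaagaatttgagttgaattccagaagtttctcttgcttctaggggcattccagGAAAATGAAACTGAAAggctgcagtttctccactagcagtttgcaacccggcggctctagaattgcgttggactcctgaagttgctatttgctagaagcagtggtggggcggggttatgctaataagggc
Phf11b: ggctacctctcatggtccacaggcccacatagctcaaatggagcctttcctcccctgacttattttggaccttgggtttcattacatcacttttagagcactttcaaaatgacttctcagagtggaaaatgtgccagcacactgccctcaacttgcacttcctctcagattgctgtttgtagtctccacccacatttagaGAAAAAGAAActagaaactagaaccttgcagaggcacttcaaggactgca
Isg15: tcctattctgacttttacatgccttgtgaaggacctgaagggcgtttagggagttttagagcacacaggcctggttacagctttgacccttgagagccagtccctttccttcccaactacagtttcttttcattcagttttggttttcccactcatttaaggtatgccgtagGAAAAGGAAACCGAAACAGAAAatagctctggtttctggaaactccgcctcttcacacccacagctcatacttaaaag
Isg15 held 3 overlapping matches, Bst2 2 and Phf11b 1. RefSeq promoters were matched for 32 of the 43 list members, and 12 of these (37.5%) held the motif, against 936 of 27025 promoters overall (3.46%). For the interferon-gamma list the count was 11 of 15 (73.3%), and for the class II list 0 of 8. A match to these letters is a description of the sequence and not a bound site.

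The interferon-gamma list, which holds guanylate-binding proteins and chemokines among others, had 18 of 18 tested members below 0, with a median of -0.54, and 0 passed the edgeR test. DESeq2 called 1, Cxcl10 (0.300% of all genes on that side), and edgeR without the filter called 5 (182 of 21012 genes in all). Without WT replicate 3 the median was -0.34. With a mouse left out, 16 to 18 of the 18 were below 0. Cxcl10, a ligand of Cxcr3 on T cells, was at 173, 72.7, 138 and 109.7 CPM in the KO mice and 348, 202 and 207 CPM in the WT mice (log2 change -1.08, SE 0.30, edgeR adjusted p = 0.548). Ciita, which interferon-gamma also induces, was at 215 ± 55.0 and 213 ± 28.7 CPM with a fitted log2 change of -0.03 (SE 0.19), whose sign differs from that of the unscaled means, so that its place among the 18 below 0 carries no direction. The class II list had 5 of 11 members below 0 and a median of 0.01, and H2-Ab1 was at 8544.4 ± 504 and 8580.0 ± 521 CPM (log2 change -0.04, SE 0.09, edgeR adjusted p = 0.938).

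The median of the type I interferon list lay between -1.18 and -0.64 when each mouse was left out in turn, with the value nearest 0 without WT replicate 1. Summed over the 43 genes, the KO mice held 7349.9, 7177.5, 8840.4 and 8240.3 CPM and the WT mice 17307.0, 10390.6 and 10994.8 CPM. The groups did not overlap, and WT replicate 1 held the most. The median was -1.02 in cells of phase G1 alone and -0.90 with sex as a term. In the other types of the same mice, 43 of 43 tested members were below 0 in monocytes (median -0.60), 43 of 43 in cDC1 (-0.55) and 36 of 37 in cDC2 (-0.93), with 0 passing in each. These values come from the same 7 mice and are no independent support for one another. In the class-by-genotype fits, 0 of 43 members passed against monocytes, cDC1 or cDC2, with lowest edgeR adjusted p of 0.760, 0.898 and 0.852. The difference was below 0, meaning a lower log2 change in mo-DCs, for 36 of 43 against monocytes, 42 of 43 against cDC1 and 19 of 43 against cDC2. Its medians were -0.29, -0.37 and 0.03, against 0.02, 0.0 and 0.01 over all genes in the same fits.

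Markers of other cells are given here beside these results. A T cell receptor complex UMI was present in 14.2, 19.4, 36.2 and 31.7% of KO and 4.81, 11.8 and 12.4% of WT mo-DCs. These shares were not thinned, and mo-DCs held medians of 14022.5, 7250.0, 11682.5 and 10290.0 UMIs in KO and 8736.0, 9147.0 and 7239.0 in WT. The other types had higher KO means too. In KO and WT these were 22.4 ± 16.3 and 7.95 ± 3.94% of monocytes, 26.0 ± 11.2 and 9.23 ± 6.67% of cDC1, and 21.2 ± 8.48 and 10.7 ± 7.17% of cDC2. In mo-DCs, 8 of the 9 T cell list genes were above 0 in KO (median 1.17, and 0.70 without KO replicate 4). None passed the edgeR test, and DESeq2 called Cd3e and Cd3g higher (adjusted p = 0.0253 and 0.0313), against 0.0924% of all genes on that side. Their summed level was 132 to 317 CPM in KO and 107 to 138 CPM in WT, with none of the 9 at 0. Without the cells that held such a UMI, an alternative chosen after the data were seen, the type I interferon median was -1.03. Ctsw and Il18r1 are also lymphocyte genes, and the part of T cell RNA in their difference was not tested. The summed classical monocyte list (14 genes, none at 0) was 1344.1 to 1730.6 CPM in KO and 1861.7 to 3915.9 CPM in WT. In mean log2(CPM + 1) over the tested members of this list, the groups overlapped (5.19, 6.13, 5.22 and 6.13 in KO, 6.67, 5.89 and 6.34 in WT). Of its 13 tested members, 10 were below 0 and 3 above, with a median of -0.59 that was -0.96 without WT replicate 2, -0.29 without KO replicate 3 or WT replicate 1 and -0.27 without WT replicate 3. DESeq2 called Ly6c2 and Ms4a4c of this list lower, against 0.300% of all genes on that side. Ly6c2 was at 172, 298, 251 and 173 CPM in KO and 897, 413 and 332 CPM in WT. The log2 changes of Ly6c2 and Ms4a4c were -1.34 and -1.15 (edgeR adjusted p = 0.548 and 0.544). The summed plasmacytoid dendritic cell list (9 genes, none at 0, Bst2 among them and also in the interferon list) was 522 to 634 CPM in KO and 750.5 to 1256.6 CPM in WT. Its mean log2(CPM + 1) overlapped between the groups (4.68, 4.58, 3.55 and 3.65 in KO, 4.79, 4.55 and 4.56 in WT). Whether any of these other cells contribute to the interferon difference was not tested.

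**Figure D5:**
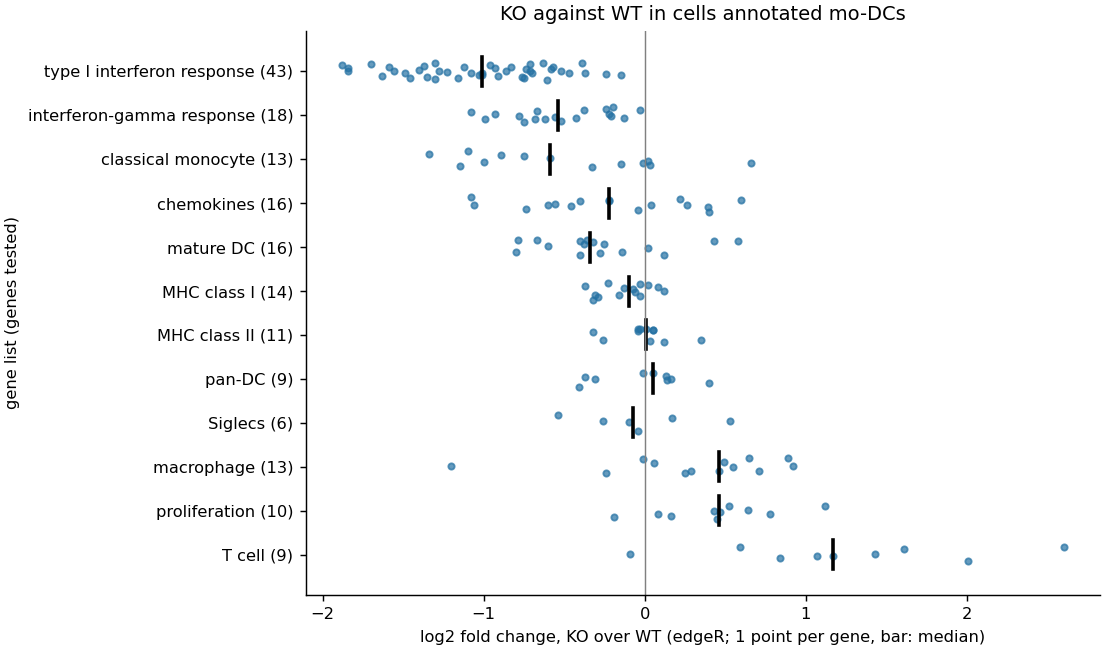
Log2 fold change, KO over WT, in mo-DCs for the tested genes of 12 lists (1 point per gene, edgeR), with the median as a bar and the number of genes in parentheses. The type I interferon genes all lie below 0 around a median of -1.01, the MHC class II genes around 0.01 and the T cell genes around 1.17; no gene of any list passed the test.

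In the other gene lists, too, 0 members passed the edgeR test. DESeq2, which called 0.300% of all genes lower in KO, called Ccl9 and Cxcl10 of the chemokines, Fcgr1 of the Fc and scavenger receptors and of the mo-DC list, Ly6c2 of that list and of the classical monocytes, Ms4a4c of the latter and of the 4 proposed markers, and Bst2 of the plasmacytoid list. Chemokines had 10 of 16 members below 0 (median -0.22, and -0.62 to -0.07 with a mouse left out, the ends without KO replicate 4 and WT replicate 3). Below 0 were also 6 of 7 chemokine receptors (-0.47, and -0.15 and -0.72 without WT replicates 1 and 2) and 12 of 16 mature dendritic cell markers (-0.34, and -0.18 without WT replicate 1). For costimulation and checkpoint ligands it was 10 of 15 (-0.05), and for MHC class I genes 11 of 14 (-0.10, and -0.16 to -0.06 with a mouse left out). Proliferation genes had 9 of 10 above 0 (median 0.46, but 0.14 without WT replicate 1 and 0.80 without WT replicate 3), beside 23.9 ± 4.45% of cells in S or G2M in KO (18.1 to 28.3%, n = 4) and 16.8 ± 9.94% in WT (7.22 to 27.1%, n = 3), with an exact permutation p of 0.257. WT replicate 1 was the mouse at 7.22%, and the difference of 7.15 points was 2.38 without it and 12.3 without WT replicate 3. Macrophage markers had a median of 0.46, which turned to -0.05 without KO replicate 4, whose summed level of 7276.5 CPM was the highest of the 7 mice (1199.5 to 4370.5 CPM in the others). Genes of dissociation stress had 11 of 14 below 0 (-0.18, and -0.02 without WT replicate 1). Ccr7 was at 188, 45.3, 98.5 and 389 CPM in KO and 528, 235 and 73.6 CPM in WT (log2 change -0.67, SE 0.94, edgeR adjusted p = 0.905), with wide overlap. The median ribosomal content of a cell was 17.1 ± 0.413% in KO and 15.2 ± 1.51% in WT, with every KO mouse higher (exact permutation p = 0.0286, the smallest possible, adjusted over 5 measures 0.143). The difference of 1.81 points was 0.945 without WT replicate 1.

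A term for the difference of the KO effect between mo-DCs and each other type, with 1 term per mouse, called 2 of 10168 genes (0.0197%) against monocytes, 2 of 11089 (0.0180%) against cDC1 and 3 of 10060 (0.0298%) against cDC2. Cd209a (chr8:3743397-3748984, GRCm38) was at 17.6, 11.2, 30.8 and 22.8 CPM in KO mo-DCs and 79.3, 128 and 20.4 CPM in WT mo-DCs, and at 9.75 CPM or less in the monocytes of all mice. Its KO effect differed from that in monocytes by -4.23 on the log2 scale (SE 0.65, edgeR adjusted p = 0.0182). The monocyte values rest on 0 to 10 UMIs per mouse, the call was lost without KO replicate 1, 2 or 4 or WT replicate 2 (adjusted p up to 0.584), and the genotype groups overlap within mo-DCs. Sct, the hormone secretin, differed from cDC2 by -4.25 (SE 0.58, edgeR adjusted p = 0.00312), from 1, 0, 0 and 15 UMIs in KO and 153, 44 and 5 in WT mo-DCs. That call was lost without KO replicate 4 or WT replicate 1 or 2. Cpne2, a calcium-dependent membrane-binding protein, was at 54.5, 87.5, 77.4 and 60.2 CPM in KO and 43.9, 55.4 and 40.8 CPM in WT mo-DCs, and at 111 to 144 CPM in KO and 162 to 226 CPM in WT cDC2. Its effects differed by 1.26 (SE 0.19, edgeR adjusted p = 0.0113), and the call was lost without KO replicate 2, 3 or 4 or WT replicate 2. The other calls were the immunoglobulin genes Igkv13-84 (against all 3 types) and Ighg2b (against cDC1), and none of these held without the 6 immunoglobulin-loaded cells.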

How the data were processed

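The members and gene lists were chosen with earlier results of these data known. The authors deposited expected counts, which are unscaled UMI estimates for each gene in each cell, and 6.86% of the non-zero mo-DC values were not whole (tolerance 0.001). The deposited cell table gives mitochondrial and ribosomal content as percent of UMIs per cell, detected counts, a cell type name and a cycle phase; its embedding scores, as deposited, were not used. Per the submitters' processing notes, FastQC 0.11.5, STARsolo and STAR 2.7.10a were used with build mm10; the gene annotation, cell filters, doublet handling and naming method are not given in the sources used here.

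Counts were summed per mouse and cell type and rounded. KO and WT were compared in edgeR 4.0.16 (TMM, filterByExpr, robust quasi-likelihood, Benjamini-Hochberg threshold 0.05), with a class-by-genotype term and 1 term per mouse for differences between types. Labels do not say more than that each library is 1 mouse. Cell types were compared within mice on log2(CPM + 1) with no test. Shares, quality measures and Siglece detection (after thinning) used exact permutation tests over the 35 divisions of 7 mice. Genes were named by rule: up to 10 per direction and cell type past the fold, the 10 per direction with the lowest p whose mice did not overlap, called interaction genes, and list members; Rps3a2 and Rps3a3 were named after their values were seen. In a simulation, genes were drawn independently from mo-DC means and mo-DC library sizes. It held no change shared by many genes of 1 mouse and no mouse effect shared between types. The rates it gave need not hold for these data. The genotype fit recovered 63.9% of 97 genes changed by log2 1 and 95.8% of 95 changed by log2 2 (10317 genes, 6 unchanged genes called). The class-by-genotype fit recovered 14.0 and 76.0% of 100 each (10489 genes, 1 unchanged gene called). It was simulated at mo-DC depth for both types, so its rates need not hold for types with fewer UMIs, such as monocytes. Alternatives were DESeq2 1.42.0, RLE scaling, no filter, a replicate block, sex as a term, equal cells per mouse, G1 cells, genes with whole values and each mouse left out. Gene positions are from GENCODE M21 and promoters from RefSeq. Of the list symbols, 3 were matched through RefSeq synonyms and 0 were not found. Xist and Y-linked genes gave KO replicates 1 and 2 and WT replicate 3 as female.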

Additional observations from a re-analysis of the deposited data

Results flagged for a closer look

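Among 46 values checked in the 4 KO mice for 1 mouse standing far from the rest, 2 were picked out, and chance picks out about 1 in 20. The median number of genes per mo-DC at 3323 UMIs was 1495.0 in KO replicate 3 against 1421.0 to 1423.0 in the other KO mice. Cd3e was at 47.3 CPM in KO replicate 4 against 10.3 to 16.2 CPM in the other KO mice.

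The KO effect in mo-DCs differed from that in another type, by the class-by-genotype term, for Cd209a (-4.23 on the log2 scale against monocytes), Sct (-4.25 against cDC2), Cpne2 (1.26 against cDC2), Ighg2b (-2.30 against cDC1) and Igkv13-84 (-7.71 against monocytes, -8.80 against cDC1 and -7.74 against cDC2). Of the 5904 Igkv13-84 UMIs in mo-DCs of WT replicate 2 (values rounded in each cell), 5868 lay in 1 cell, and without the 6 immunoglobulin-loaded cells its edgeR adjusted p was 0.974 to 0.999.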

How the results depend on the processing

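The count of genes called between KO and WT mo-DCs was 0, and it was 34 with DESeq2, 182 without the filter and 0 to 2 with a mouse left out (Rps3a2 and Rps3a3 without KO replicate 4). With the replicate block 8 were called; the numbers were not taken to pair the mice, since same-numbered mice had correlations of deviations of -0.0127, 0.0137 and -0.145. The block also moved the chemokine median to -0.71 and the macrophage median to -0.19. Only KO has a replicate 4, so in the block fit that mouse has its own term and does not enter the KO effect. RLE scaling, equal cells per mouse, sex as a term, G1 cells and genes with whole values each gave 0. The class-by-genotype counts were 37, 23 and 26 without the filter against monocytes, cDC1 and cDC2, 0 to 5, 0 to 4 and 0 to 5 with a mouse left out (0 without WT replicate 2 in all 3 fits, and the most without WT replicate 3, or without WT replicate 1 or 3 for cDC1), and 1 and 0 against monocytes and cDC1 without immunoglobulin-loaded cells. Without cells with a T cell UMI, chosen after the data were seen, the median of costimulation ligands was -0.21, H2-Ab1 was at 0.02, and the share among dendritic cells differed by -1.73 points; the T cell list median of -0.11 there is void, since the removal used 5 of its 9 genes and left 1 gene tested. With a mouse left out, costimulation ligands lay between -0.17 and -0.03. With a mouse left out, H2-Ab1 lay between -0.08 and 0.0 and Ccr7 between -1.39 and 0.17, both highest without WT replicate 1. With a mouse left out, differences in percentage points were -2.77 to 0.0390 (share of all cells), -2.11 to 0.951 (Siglece UMI; 1.19 unthinned; 0.498 without WT replicate 2), -0.0126 to 0.0974 (mitochondrial) and 0.945 to 2.33 (ribosomal, p = 0.0667 or more by the exact permutation test), and the difference in genes per cell was -3.50 to 21.2. Genes past the fold on the higher side against monocytes, cDC1 and cDC2 were 299, 397 and 741 with a filter of 10 CPM and 370, 464 and 858 without one; on the lower side they were 124 against cDC1 at 10 CPM, and 312, 153 and 627 without a filter. These larger counts follow from more genes being compared. The cause of the other shifts was not tested.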
